A study of Homo sapiens with 6 samples.

Results

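The 9 genes described here encode conjugating and hydrolysing enzymes of drug and lipid metabolism: the UDP-glucuronosyltransferases UGT1A1, UGT1A6, UGT1A7, UGT1A9, UGT2B7 and UGT2B11, and the carboxylesterases CES1, CES2 and CES3. They are 9 of the 60624 genes in the count table. They were chosen by symbol for the joint fall of the UGT genes and the rise of CES1 between the groups compared below, so the read counts of that contrast selected them, and their differences between the groups are given as a description with no test.

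PolyA RNA was sequenced from A549 cells, an established human lung cancer line. The 3 parental libraries came from wild-type cells, and the 3 knockout libraries from A549 cells in which RAVER1 was deleted with CRISPR/Cas9. RAVER1 encodes an RNA-binding partner of the splicing regulator PTBP1. All knockout titles carry the label KO2, and nothing in the labels says whether it stands for 1 clone or several, so any p-value measures the spread between these libraries, not between independently edited lines.

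Glucuronosyltransferases sit in the membrane of the endoplasmic reticulum and attach glucuronic acid from UDP-glucuronic acid to hydroxyl, carboxyl and amine groups of hormones, bilirubin and drugs, which makes these molecules water soluble. Carboxylesterases cut ester and amide bonds and both activate and inactivate drugs. The enzyme families meet on irinotecan, which carboxylesterases, above all CES2, hydrolyse to its active form and which UGT1A enzymes then conjugate. In the body both families are best known from liver and intestine, and several UGT1A forms are known from airway and other surface epithelia.

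Each UGT1A transcript joins a first exon of its own to exons that all UGT1A genes share. The junctions below show where a first exon gives way to shared sequence: 15 bases of each first exon are in lower case and the first 15 bases of the shared second exon (chr2:233767034-233767165, plus strand, hg38) are in capitals, both read from GENCODE release 29 transcripts.
UGT1A1: aatccactatcccagGAATTTGAAGCCTAC
UGT1A6: aaagacttgtctcagGAATTTGAAGCCTAC
UGT1A7: aagccagtgcctatgGAATTTGAAGCCTAC
UGT1A9: aagccgttgcctatgGAATTTGAAGCCTAC

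The bases after the junction are the same in every form, and the first exons of UGT1A7 and UGT1A9 also resemble each other up to it. Over the coding part of the first exon, UGT1A7 and UGT1A9 were identical at 92.3% of 855 aligned bases, and UGT1A1 and UGT1A9 at 58.2% of 838. Of the 806 windows of 50 bases in the coding first exon of UGT1A9, 23 were found letter for letter in that of UGT1A7. In the gene models, 937 of the 2416 exonic bases of UGT1A9 belong to no other gene on its strand, against 2475 of 4167 for UGT1A7, 2902 of 5180 for UGT1A6 and 2240 of 4467 for UGT1A1. The unused forms UGT1A3, UGT1A4, UGT1A5, UGT1A8 and UGT1A10 held 0 or 1 read in each library, so reads on the shared exons were not credited to every gene. The UGT1A counts thus leave out reads that lie wholly on shared exons.

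**Figure D1:**
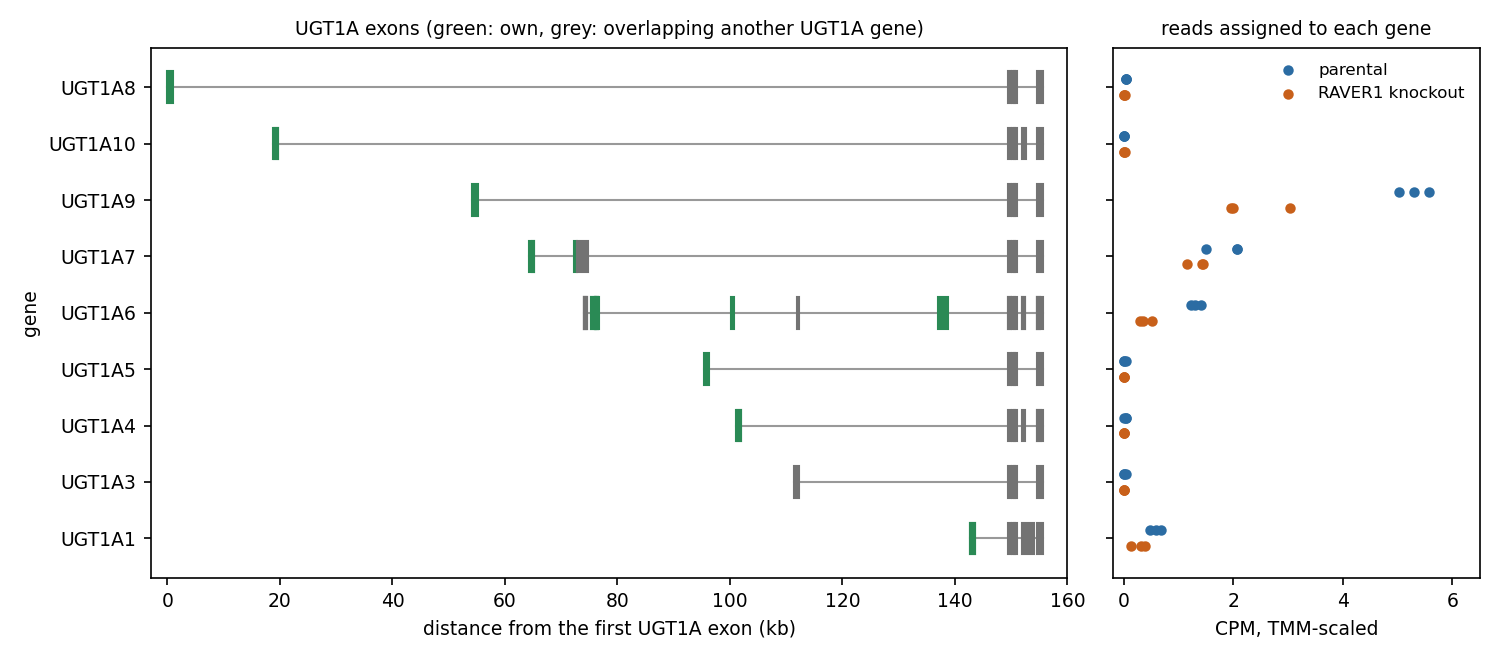
Left, exons of the 9 UGT1A genes by distance in kb from the first of them, with exons that overlap no other UGT1A gene in green and overlapping ones in grey. Right, TMM-scaled CPM of each gene in the 3 parental (blue) and 3 knockout (orange) libraries; UGT1A9 holds the most reads, and 5 of the 9 genes lie at or near 0.

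RAVER1 itself, the deleted gene, was checked first. It stood at 73.2, 65.7 and 70.3 CPM in parental libraries 1 to 3 and at 2.84, 2.81 and 2.55 CPM in the knockout libraries, where CPM is the read count scaled to library size with TMM factors. Total counts ran from 29811747 to 39910127 per library. In the comparison of knockout with parental libraries over 16652 genes, 41.4% passed an adjusted p under 0.05 (edgeR's quasi-likelihood test with Benjamini-Hochberg adjustment), 21.3% as higher and 20.1% as lower, and in 50.2% the CPM values of the groups did not overlap. With so wide a background, 7 of the 9 members past the threshold as lower and 1 as higher is a count from which nothing is read, since this contrast chose them. All 9 passed the filter on low counts. UGT2B7 and UGT2B11 did so through the parental libraries alone, with no knockout library above the filter's 0.301 CPM, and CES1 through the knockout libraries, with 1 parental library above it.

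UGT1A9 conjugates phenols and drugs such as propofol and mycophenolic acid. It lies at chr2:233671853-233773300 on the plus strand and was the most abundant UGT member. The parental libraries held 172, 161 and 181 of its reads and the knockout libraries 77, 78 and 94, which is 5.02, 5.30 and 5.57 CPM against 1.99, 1.96 and 3.03 CPM. The groups did not overlap, and knockout library 3 stood above the other knockout libraries. The fitted log2 fold change, knockout against parental, was -1.21 (SE 0.15, n = 3 per group), and the parental mean was 2.28 times the knockout mean.

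UGT1A6 acts on small planar phenols and serotonin and lies at chr2:233691607-233773300, plus strand. Reads numbered 42, 43 and 42 in the parental and 20, 12 and 11 in the knockout libraries. The parental libraries were nearly equal, and each stood above every knockout library. The means were 1.31 ± 0.10 and 0.39 ± 0.11 CPM (SD, n = 3 per group), and the log2 fold change was -1.73 (SE 0.25).

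UGT1A1, the enzyme that conjugates bilirubin, lies at chr2:233760248-233773299, plus strand. For this gene the parental libraries held 16, 18 and 22 reads and the knockout libraries 12, 5 and 12. No knockout library reached the lowest parental value of 0.467 CPM, but knockout library 2, at 0.126 CPM, was far below the other knockout libraries, which stood at 0.310 and 0.387 CPM. The log2 fold change was -1.11 (SE 0.36). It was -0.73 without knockout library 2 and between that value and -1.40 with any 1 library left out.

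UGT1A7 is known mainly from tissues other than liver and lies at chr2:233681938-233773299, plus strand. Here the parental libraries held 71, 63 and 49 reads and the knockout libraries 56, 46 and 44. In CPM the lowest parental library, at 1.51, and the highest knockout library, at 1.45, were close together without overlapping. The log2 fold change was -0.50 (SE 0.19), the smallest among the UGT members. With any 1 library left out it ran from -0.64 to -0.39.

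**Figure D2:**
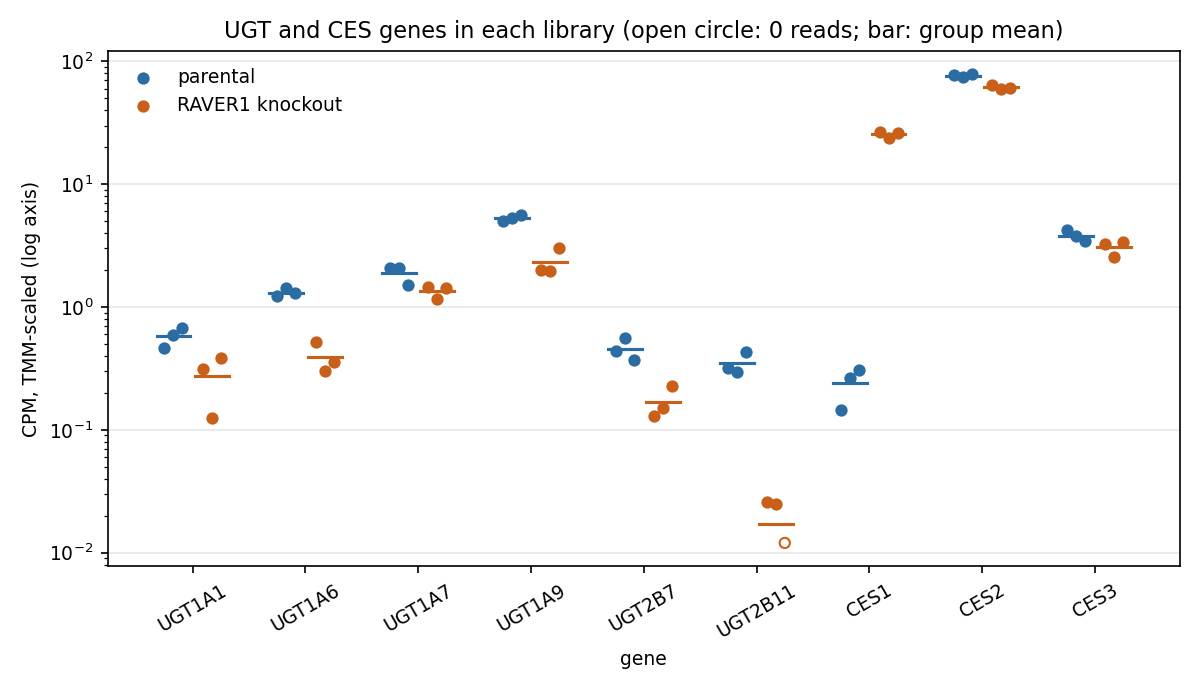
TMM-scaled CPM (log axis) of the 9 members in the 3 parental (blue) and 3 knockout (orange) libraries, with the group mean as a bar and an open circle for 0 reads. CES1 rises from below 0.4 to above 20 CPM, all UGT members are lower in the knockout libraries, and the groups of UGT1A7, CES2 and CES3 lie close together.

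Summed over the 9 UGT1A genes, the parental libraries held 302, 289 and 296 reads and the knockout libraries 165, 143 and 161. In CPM the sum went from 9.14 ± 0.35 to 4.35 ± 0.80 (SD, n = 3 per group), and the knockout mean was 47.6% of the parental mean. The mix also differed between the groups. UGT1A7 made up 20.6% ± 3.6 of UGT1A reads in parental and 31.1% ± 3.4 in knockout libraries, while UGT1A6 made up 14.3% ± 0.5 and 9.1% ± 2.7. UGT1A9 remained the largest share in each library, at 57.9% ± 2.8 in parental and 53.2% ± 6.0 in knockout libraries (SD, n = 3 in each case).

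The UGT2B genes lie on chromosome 4. UGT2B7 (chr4:69051363-69112987, plus strand) conjugates morphine, steroids and fatty acids. Counts were low, and the parental libraries held 15, 17 and 12 reads and the knockout libraries 5, 6 and 7. Still, each parental library was above each knockout library, at 0.369 CPM or more against 0.225 CPM or less. The log2 fold change was -1.44 (SE 0.38).

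UGT2B11 (chr4:69199951-69214731, minus strand) is a close relative of UGT2B7. The parental libraries held 11, 9 and 14 of its reads and the knockout libraries 1, 1 and 0. The knockout libraries were all under the 3 counts that a count of 0 allows. From 34 against 2 reads in all, the parental level was 19.2 times the knockout level, with an exact 95% interval of 4.91 to 165 that covers counting error only. The fitted log2 fold change of -4.01 (SE 0.63) rests on those 2 reads. The coding sequences of UGT2B7 and UGT2B11 were identical at 91.8% of 1587 aligned bases, and that of UGT2B28 matched UGT2B11 at 97.0%. UGT2B28 held 7 reads in parental library 3 and 0 in the other libraries, and whether reads were exchanged between this pair was not tested.

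UGT2B4, which is no member, held 7, 6 and 8 reads in the parental libraries and 0 in each knockout library. It was at least 7.89-fold lower in the knockout group, taking 3 counts over the group as the floor. Of the 10 UGT2 genes together, the parental libraries held 40, 43 and 48 reads and the knockout libraries 8, 12 and 10. The summed knockout mean was 20.5% of the parental mean in CPM.

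UGT8, a ceramide galactosyltransferase of the same superfamily that uses UDP-galactose, was the one other UGT gene kept by the filter. With 332, 311 and 331 reads in parental libraries 1 to 3 it was well covered, and the knockout libraries held 373, 425 and 261. The groups overlapped in CPM, and its log2 fold change was -0.06 (SE 0.09, adjusted p = 0.645 in edgeR), turning to 0.02 without knockout library 3. The other 15 genes of the UGT list were below the filter, with at most 8 reads in any library.

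CES1 is the main carboxylesterase of liver, which hydrolyses drugs such as oseltamivir and clopidogrel as well as cholesteryl esters. It lies at chr16:55802851-55833337 on the minus strand. The parental libraries held 5, 8 and 10 of its reads and the knockout libraries 1029, 938 and 813, which is 0.146, 0.263 and 0.308 CPM against 26.6, 23.6 and 26.2 CPM. The knockout libraries were within a narrow range far above every parental library. The log2 fold change was 6.73 (SE 0.15), and the knockout mean was 107 times the parental mean.

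CES1P1, a pseudogene of CES1 at chr16:55760566-55793960 on the plus strand, held 1 read in each parental library and 147, 116 and 97 reads in the knockout libraries. From 3 against 360 reads, the knockout level was 106 times the parental level, with an exact 95% interval of 36.1 to 519. Its reads came to 14.3%, 12.4% and 11.9% of the CES1 reads in knockout libraries 1 to 3. The transcripts were identical at 96.3% of 1704 aligned bases, and 40.0% of the 50-base windows of CES1P1 occurred letter for letter in CES1. The stretch below was chosen for a mismatch near its middle, and it holds more differences for its length than the whole alignment. It covers the first 30 bases from the CES1 start codon and from the start of the CES1P1 transcript. Bases that differ are in capitals.
CES1: atgtggctccGtgcCTttAtcctggccact
CES1P1: atgtggctccCtgcTCttGtcctggccact

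Counted from 1 at the first base of each stretch, with the CES1 base first, the differences are G11C, C15T, T16C and A19G. How many of the CES1P1 reads came from CES1 transcripts was not tested, and the treatment of reads that match both copies is not given in the sources used here. CES1P2, a shorter pseudogene, held 0 reads in each parental library and 4, 1 and 5 in the knockout libraries, which is below the filter.

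CES2, the main intestinal carboxylesterase, lies at chr16:66934444-66945096 on the plus strand. The parental libraries held 2647, 2246 and 2552 of its reads and the knockout libraries 2468, 2388 and 1896. Scaled to library size, the values were 77.2, 73.9 and 78.5 CPM against 63.8, 60.0 and 61.1 CPM, so that every knockout library was below every parental library although knockout library 2 had more reads than parental library 2. The knockout mean was 80.5% of the parental mean, and the log2 fold change was -0.31 (SE 0.05).

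CES3 follows CES2 on the same strand, at chr16:66961237-66975148. The parental libraries held 144, 115 and 112 of its reads and the knockout libraries 127, 102 and 104. The lowest parental value was 3.45 CPM and the highest knockout value 3.35 CPM, so the groups nearly touched. CES3 was the 1 member not past the threshold. Its log2 fold change of -0.32 (SE 0.14) was close to that of CES2, with a larger SE. It was -0.20 without knockout library 2.

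Together CES1, CES2 and CES3 summed to 80.6 ± 2.3 CPM in the parental group and 90.2 ± 3.8 CPM in the knockout group (SD, n = 3 per group). The total was 1.12 times as high while its make-up moved: CES1 went from 0.30% ± 0.10 to 28.2% ± 0.8 of these reads, CES2 from 94.97% ± 0.41 to 68.4% ± 1.2, and CES3 from 4.73% ± 0.49 to 3.39% ± 0.37.

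**Figure D3:**
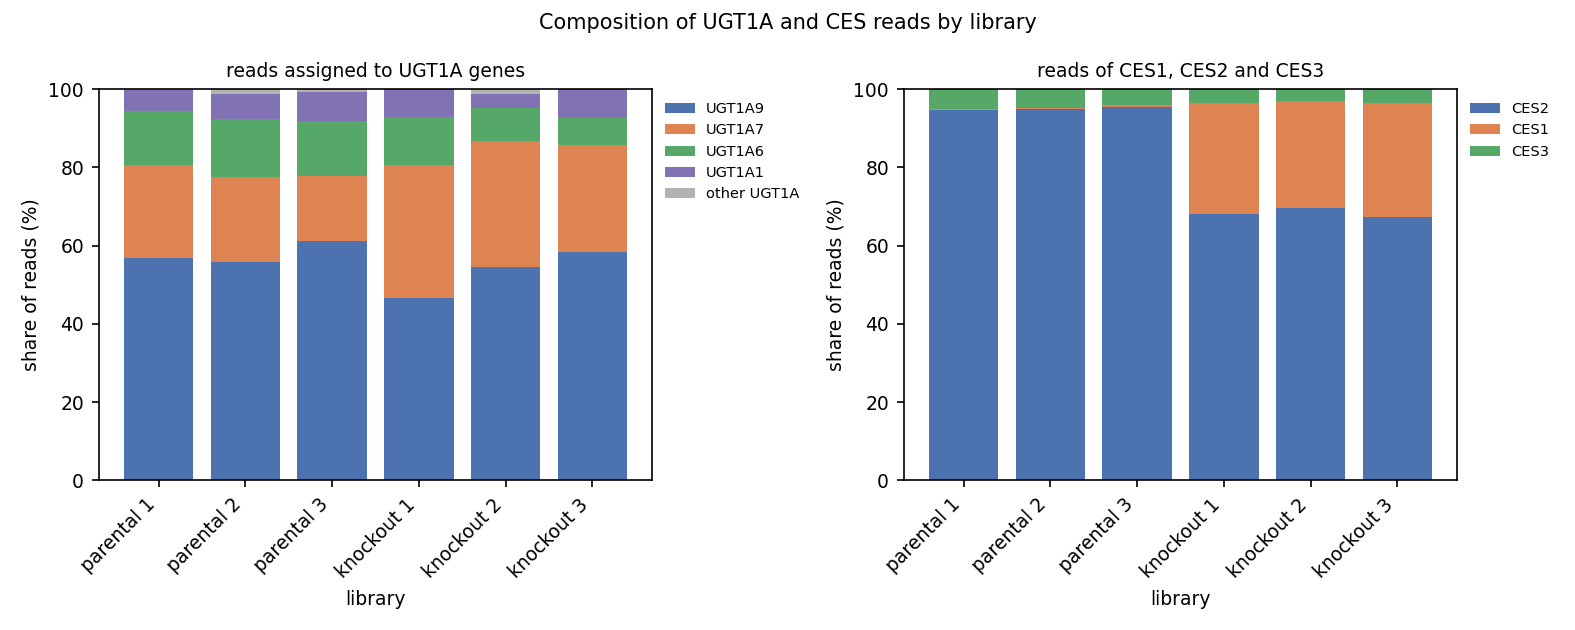
Stacked bars give the share in percent of each gene among reads assigned to UGT1A genes (left) and to CES1, CES2 and CES3 (right), for each of the 6 libraries. UGT1A9 is the largest UGT1A share throughout, and CES1 goes from a sliver in the parental libraries to 28.2% of the mean knockout library.

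Levels of different genes were compared per length, as reads per kilobase of exon that no other gene on the strand shares, scaled to library size (RPKM). In the parental libraries CES2 led at 14.7 RPKM, followed by UGT1A9 at 5.65, CES3 at 0.785, UGT1A7 at 0.761, UGT1A6 at 0.452, UGT1A1 at 0.258, UGT2B7 at 0.202, UGT2B11 at 0.149 and CES1 at 0.081. Neighbours in this order overlapped over the 3 libraries for CES3 and UGT1A7, for UGT1A1 and UGT2B7, and for UGT2B7 and UGT2B11. In the knockout libraries CES1 moved from last to second place at 8.67 RPKM, behind CES2 at 11.9 and above UGT1A9 at 2.48. CES3 at 0.631 and UGT1A7 at 0.542 RPKM overlapped again. UGT1A1 at 0.122 overlapped UGT1A6 at 0.135 and UGT2B7 at 0.075, which did not overlap each other, and UGT2B11 was last at 0.0073 RPKM. Over all exonic bases, shared ones included, the parental levels were 2.19 RPKM for UGT1A9, 0.452 for UGT1A7, 0.253 for UGT1A6 and 0.130 for UGT1A1, which puts UGT1A1 below UGT2B7 and UGT2B11. The bases counted as own include annotated exon sequence beyond the first exon in UGT1A7, UGT1A6 and UGT1A1, but not in UGT1A9. The first exons of UGT1A7, UGT1A6, UGT1A1 and UGT1A9 are of like length, at 855, 1000, 904 and 937 bases. Levels per first exon were not computed. The gaps between UGT1A genes and their places beside other genes, CES3 included, thus depend on the length used.

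**Figure D4:**
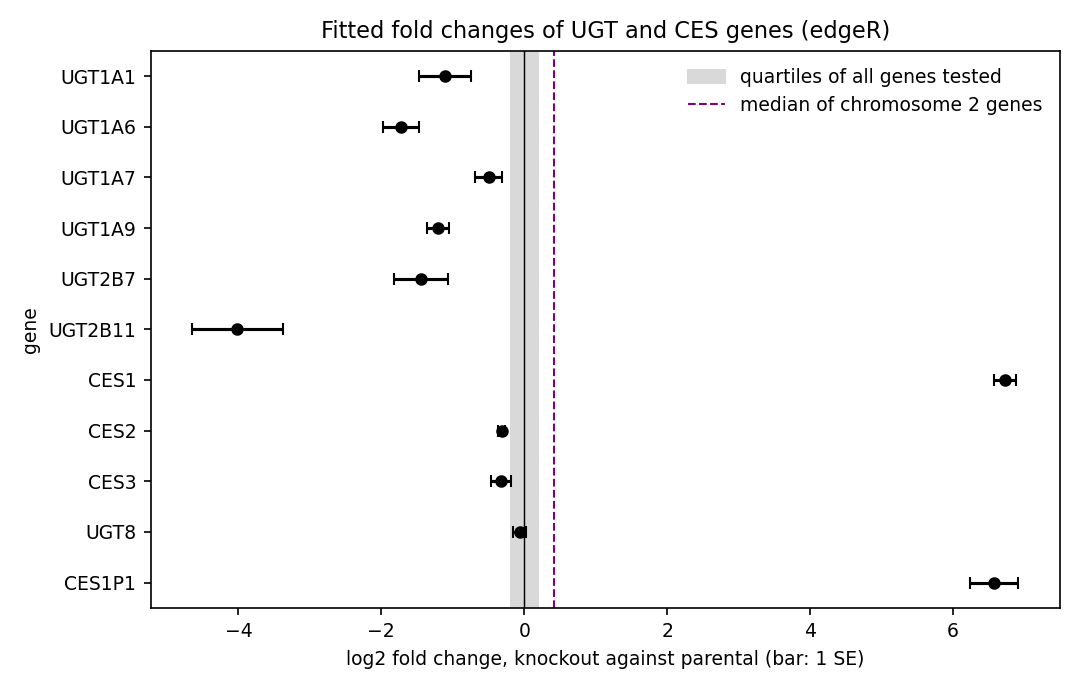
Fitted log2 fold changes, knockout against parental, of the 9 members, UGT8 and CES1P1, with bars of 1 SE from the edgeR fit over 3 libraries per group. The grey band spans the quartiles of all 16652 genes (-0.18 to 0.20) and the dashed line marks the chromosome 2 median of 0.42; UGT members lie to the left of the band, CES1 and CES1P1 far to its right.

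The UGT1A genes lie in a part of the genome where other genes were mostly higher in the knockout. Over the 1125 chromosome 2 genes tested the median log2 fold change was 0.42, with 84.7% above 0, beside a median of 0.00 over all genes. Of 11 genes tested within 1 Mb of the UGT1A cluster, 6 were higher and 1 was lower, beside 21.3% and 20.1% of all genes. Their median log2 fold change was 0.46. The nearest on either side were USP40, a ubiquitin protease, at 0.46 (SE 0.05), and HJURP, a chaperone of the centromeric histone, at 0.69 (SE 0.04). DGKD, a diacylglycerol kinase, was at 0.74 (SE 0.04) and ATG16L1, an autophagy gene, at 0.63 (SE 0.05). Whether the level of the chromosome bears on the UGT1A values was not tested.

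Near the UGT2 genes, 1 of 5 genes tested passed the threshold, beside 41.4% of all genes. This was YTHDC1, a reader of methylated RNA, with a log2 fold change of -0.21 (SE 0.08). YTHDC1 missed the threshold in DESeq2, in limma-voom and with scaling factors from outside chromosome 2. It also missed it without parental library 2 (-0.14), parental library 3 (-0.17), knockout library 2 (-0.21) or knockout library 3 (-0.20). The gene tested nearest to CES1 is its pseudogene CES1P1, given above. Of the 15 other genes tested within 1 Mb of CES1, 4 were higher and 1 was lower, beside 21.3% and 20.1% of all genes. Their median was 0.11. The lower count was 0 without parental library 2 or knockout library 3 and 2 without knockout library 1. LPCAT2, a lysophospholipid acyltransferase and the nearest of these on the side of CES1P1, had a log2 fold change of 3.50 (SE 0.17). MMP2, a gelatinase next to it, had 4.17 (SE 0.10). On the other side GNAO1, a G protein subunit and the nearest, had 1.36 (SE 0.26), and MT1A, a metallothionein, had 1.15 (SE 0.14). The chromosome 16 median was -0.05. Around CES2 and CES3, 8 of 54 were higher and 15 lower, beside 21.3% and 20.1% of all genes, with a median of -0.05. The 8 higher became 3 without parental library 3, 4 without parental library 2, and 5 without knockout library 3, in DESeq2 or with upper-quartile scaling. CIAO2B, an iron-sulfur assembly gene that ends 0.021 kb before CES2 begins, stood at 0.08 (SE 0.05) and did not pass, and CBFB, a partner of RUNX factors, stood at -0.16 (SE 0.06), past the threshold but not without parental library 1 (-0.15), parental library 2 (-0.14), knockout library 1 (-0.10) or knockout library 3 (-0.18). RRAD, a small GTPase gene 8.8 kb before CES2, was higher at 1.90 (SE 0.11), while BEAN1 (-1.29), the proteasome subunit PSMB10 (-0.96) and the polarity gene PARD6A (-0.89) were lower.

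**Figure D5:**
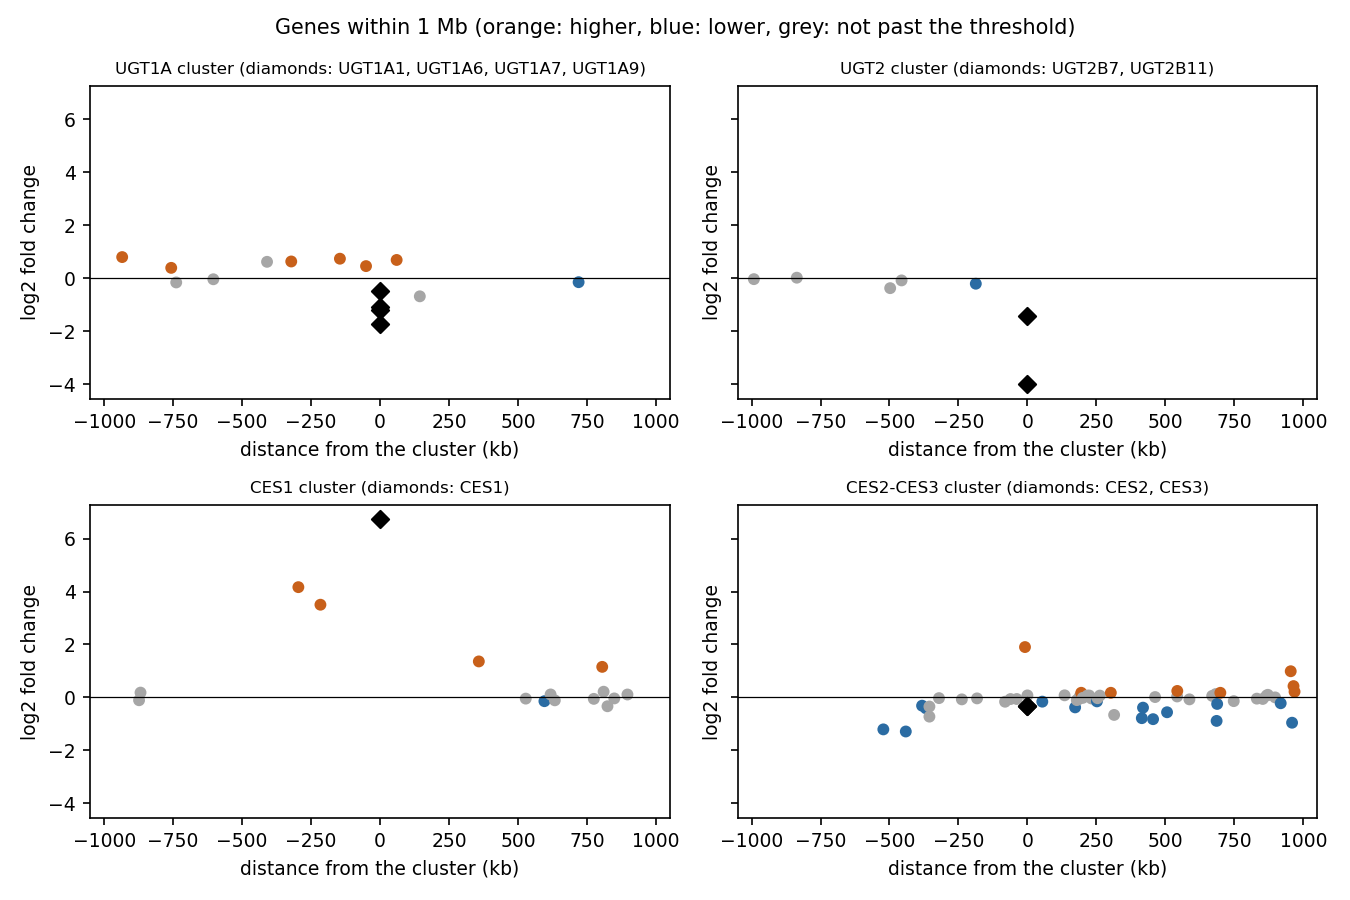
Log2 fold change of tested genes within 1 Mb of each gene cluster, by distance from it in kb, with members as black diamonds at 0 and neighbours coloured by edgeR call (orange higher, blue lower, grey not past the threshold). CES1P1, beside CES1, is not drawn. Drawn as higher are 6 of the 11 genes around UGT1A and 4 of the 15 others around CES1, beside 21.3% of all genes.

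Promoter windows of RefSeq (GRCh38.p14, 250 bases before to 50 after a start) were matched for 7 of the 9 members, in 9 windows; CES1 and CES3 had none. The windows of UGT1A7 and UGT1A9 were identical at 83.5% of 291 aligned bases. Short motifs of factors known to act on UGT genes were searched on both strands, and the motifs share no letters in the stretches printed. The core of the xenobiotic response element, GCGTG, which the dioxin receptor AHR binds, occurred in 36.5% of 35116 promoter windows of this length, and among members in those of UGT1A9, UGT1A7, UGT1A6 and CES2. The RefSeq starts of UGT1A9 and UGT1A7 differ from the GENCODE gene starts given above, so distances from the latter would be others. The stretches of UGT1A9 (chr2:233671820-233671849) and UGT1A7 (chr2:233681825-233681854) have the core in capitals on the reverse strand. They are shown because these close relatives carry it at like places, 65 and 63 bases before the RefSeq start.
UGT1A9: gaaaggataaaaaCACGCcctctattgggg
UGT1A7: gaatgaataagtaCACGCcttcttttgagg

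The antioxidant response element core of NFE2L2, TGANNNNGC, occurred in 41.8% of all windows, among members in those of UGT1A1, UGT1A6, UGT2B11 and CES2. A match of letters is no evidence of a bound site, and binding was not measured.

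Of 24 transcription factors known to act on UGT or CES genes, 22 were tested. Of these 10 were lower, 4 higher and 8 not past the threshold, beside 20.1% lower and 21.3% higher over all genes. The median log2 fold change was -0.15, beside 0.00 over all genes. FOXA3, a forkhead factor of endoderm, went from a mean of 12.4 CPM in the parental group to 1.99 CPM in the knockout group, with a log2 fold change of -2.63 (SE 0.11). HNF4G, a nuclear receptor of the gut, went from 3.35 to 0.12 CPM (-4.77, SE 0.28), and NR1H4, the bile acid receptor, from 1.52 to 0.11 CPM (-3.75, SE 0.32). The next 4 were singled out for their roles after their values were seen. HNF4A (-0.21, SE 0.06) and AHR (-0.37, SE 0.10) were lower by less, while NFE2L2, the antioxidant regulator, was higher at 0.31 (SE 0.06) and its inhibitor KEAP1 at 0.21 (SE 0.05). NFE2L2 lies on chromosome 2, and its value is below the median of 0.42 there. NR1I2, the pregnane X receptor, held 0 reads in every library.

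The list of UDP-glucuronic acid supply and glucuronate turnover held 12 genes, all tested. Of these 3 were higher, 5 lower and 4 not past the threshold, with a median log2 fold change of -0.04. The shares over all genes were 21.3% higher and 20.1% lower. UXS1, which converts UDP-glucuronic acid to UDP-xylose, rose by 0.62 (SE 0.05) on chromosome 2, where the median was 0.42, and SORD, a polyol dehydrogenase, by 0.37 (SE 0.04). CRYL1, a gulonate dehydrogenase, was at -0.57 (SE 0.08) and GUSB, the lysosomal enzyme that removes glucuronic acid, at -0.39 (SE 0.06). The 5 lower calls became 2 without knockout library 2 and 3 without parental library 3 or knockout library 3. The next 4 were singled out after their values were seen. On the path that makes UDP-glucuronic acid, UGDH stood at 565 and 583 CPM in parental and knockout means (log2 fold change 0.05, SE 0.04) and UGP2 at 0.05 (SE 0.06), neither past the threshold. UGP2 also lies on chromosome 2, and its value is below the median of 0.42 there. Of the carriers on the list, SLC35D1 stood at -0.01 (SE 0.08) and did not pass, and SLC35B1 was lower at -0.17 (SE 0.05), a call lost without knockout library 2 (-0.15) or knockout library 3 (-0.13).

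Among 21 other esterases and lipases, 4 were lower, 2 higher and 15 not past the threshold, with a median of -0.06. The shares over all genes were 20.1% lower and 21.3% higher. The lower ones included MGLL, which cleaves monoacylglycerols (-0.44, SE 0.04), PON2, a lactonase (-0.25, SE 0.04), and FAAH, which cleaves fatty acid amides (-0.69, SE 0.14). PNPLA2, the first lipase of triglyceride breakdown, was higher (0.28, SE 0.05), and it was the only higher one left when any 1 library was left out.

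Counts of other conjugating enzymes and of transporters stand beside 21.3% of all genes called higher and 20.1% called lower. Nothing is read from these counts. Of 9 tested genes of sulfation, 2 were higher, 2 lower and 5 not past the threshold. The sulfate donor synthase PAPSS2 (0.54, SE 0.06) and the phenol sulfotransferase SULT1A1 (0.86, SE 0.14) were higher, and SULT2B1 (-0.92, SE 0.10) and SULT1C2 (-1.29, SE 0.27) were lower. SULT1A1 has near-identical copies, so its value is uncertain. Of 15 tested genes of glutathione, methyl and acetyl transfer, 4 were higher, 4 lower and 7 not past the threshold, among them NNMT, a nicotinamide methyltransferase (0.85, SE 0.05), GSTM3 (0.56, SE 0.07), GSTZ1 (-0.53, SE 0.07) and GSTK1 (-0.30, SE 0.05). Of 8 tested transporters that export conjugates, 3 were higher, 4 lower and 1 not past the threshold. ABCG2 (1.23, SE 0.06) and ABCC1 (0.40, SE 0.04) were higher, and ABCC3, a glucuronide exporter (-0.55, SE 0.05), and ABCC4 (-0.47, SE 0.04) were lower. The 4 lower transporter calls became 2 without parental library 2 or knockout library 2.

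The genes whose pattern over the 6 libraries was nearest were found by the root mean square difference of centred log2 CPM. For UGT1A6 they were ST8SIA4, CLDN2 and SELENBP1, at 0.10, 0.10 and 0.12. For CES1 they were ACKR3 at 0.19, ADAMTS12 at 0.33 and TSPAN7 at 0.59, which had log2 fold changes of 6.92, 7.77 and 5.75. For CES2 they were SYNRG, ACOT11 and SLC12A7, at 0.01, 0.02 and 0.02, and for UGT2B7 they were AC008703.1, AC133555.3 and CASC9, at 0.12, 0.15 and 0.15. The points share libraries and depth, and with 2 groups of 3 the measure mainly finds genes with a like difference between the groups.

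Markers of cell types were read beside these values. The epithelial markers EPCAM (-1.70, SE 0.18), CDH1 (-2.20, SE 0.06), KRT8 (-0.73, SE 0.05) and KRT18 (-0.94, SE 0.05) were lower and KRT7 (0.55, SE 0.04) was higher. Thus 4 of 5 were lower, beside 20.1% of all genes. The summed level went from 8277 to 9115 CPM in parental libraries to 6363 to 7035 CPM in knockout libraries. Of 8 alveolar and airway markers 1 was tested, NAPSA, and it did not pass; SFTPA1, SFTPA2 and SCGB1A1 were at 0 reads. Of 8 hepatocyte markers 1 was tested, the fibrinogen gene FGB, which was lower (-4.11, SE 0.48). The list summed to 1.26 to 2.34 CPM over parental and 0.193 to 0.388 CPM over knockout libraries, of which FGB made up means of 1.33 and 0.073 CPM. Below the filter, APOA1 held 4 parental and 11 knockout reads in all, SERPINA1 11 and 3, TF 10 and 7, and TTR 3 and 0. APOB was at 0, and ALB and CYP3A4 were each at 1 read in all. Of 6 enterocyte markers 2 were tested and both were lower, CDH17 (-3.04, SE 0.18) and LGALS4 (-1.18, SE 0.39). The groups of LGALS4 overlapped in CPM, and its call was lost in DESeq2 and without parental library 3 (-0.86) or knockout library 2 (-0.98). VIL1, below the filter, held 19 parental and 23 knockout reads in all, and FABP2, ALPI and SI held 0. The list summed to 6.42 to 8.43 CPM over parental and 1.03 to 1.47 CPM over knockout libraries. CDH17 alone had means of 6.74 and 0.816 CPM. Of 8 macrophage and monocyte markers 2 were tested and neither passed: CD14 stood at -0.28 (SE 0.12) and ITGAM at 0.01 (SE 0.12). CD14 did pass as lower with upper-quartile scaling, with the replicate block and without knockout library 1 (-0.40). The list summed to 9.32 to 10.9 CPM over parental and 8.92 to 9.49 CPM over knockout libraries, with MARCO and CD163 at 0. Of 6 fibroblast markers 2 were tested and both were higher, COL1A1 (0.45, SE 0.05) and COL3A1 (2.40, SE 0.39). Below the filter, PDGFRB held 13 parental and 62 knockout reads in all, LUM 13 and 15, COL1A2 1 and 5, and DCN 0. The fibroblast list summed to 46.7 to 49.8 CPM over parental and 64.4 to 68.4 CPM over knockout libraries. The part of these differences in the UGT and CES values was not tested. In bulk RNA of this cell line, a change in some cells and a change in all of them cannot be told apart.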

How the data were processed

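The deposited table holds raw read counts per gene for 6 libraries, as whole numbers, and a gene length in bases, per the file headers. The authors used cutadapt 2.8, HISAT2 2.1.0, SAMtools 1.10, featureCounts 2.0.0 and hg38, per the submitters' processing notes. Per the labels' protocols, TRIzol was used for RNA and the library kit keeps strand. How featureCounts treated strand and shared reads, and with which annotation, is not given in the sources used here, so reads of UGT1A6, UGT2B11, CES2 and CES3 cannot be told apart from those of genes that overlap them on the other strand or the same one.

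The counts were fitted with edgeR 4.0.16 (R 4.3.3): filterByExpr, TMM scaling and the quasi-likelihood F-test of 3 knockout against 3 parental libraries, without covariates. Adjustment was by Benjamini-Hochberg over 16652 genes at 0.05, and the step was tested on simulated data. CPM used TMM-scaled library sizes, with total counts of 29811747 to 39910127. The exact intervals of UGT2B11 and CES1P1 cover counting error only. Exons and transcripts came from GENCODE release 29 on the same build, joined by gene identifier for 58437 of 60624 genes, and promoters from RefSeq. Libraries of a group differed by more than sampling noise and were kept as separate replicates.

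The members, lists and tests were chosen with earlier results of these data known. Named are all members, RAVER1 and every other UGT or CES gene kept by the filter; of each other list up to 4 genes with the smallest adjusted p past the threshold, or up to 2 where none passed (EPCAM is named beyond this, so that all 5 epithelial markers are given); of neighbours up to 4 per cluster and the nearest on either side; and the 3 genes of nearest pattern. Of the genes below the filter, some are given by their reads and the others are not given one by one. Some genes of the transcription factor list, and a promoter motif, enter counts or were computed but are not reported here. Alternatives were other scalings, filters, DESeq2 1.42.0, limma-voom (limma 3.58.1), a replicate block and each library left out.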

Additional observations from a re-analysis of the deposited data

How the results depend on the processing

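No member changed direction under any alternative run. The members past the threshold as lower went from 7 to 4 when a gene had to reach 1 CPM in 3 libraries, which removes UGT1A1, UGT2B7 and UGT2B11 from testing, and to 4 in DESeq2, where UGT1A1, UGT1A7 and UGT2B7 missed it; the cause was not tested. UGT2B11 was below the filter without parental library 1. As a description only, since this contrast chose the members, UGT1A1 also missed it without parental library 2, parental library 3 or knockout library 2, and UGT1A7 in limma-voom and without parental library 1, parental library 2, knockout library 2 or knockout library 3, while CES3 passed it with upper-quartile scaling and without knockout library 1. Leaving out 1 library gave 5 to 8 lower members and 1 higher member, 2934 to 3837 higher and 2864 to 3619 lower genes over all genes, and log2 fold changes of -1.40 to -0.73 for UGT1A1 and 6.46 to 6.95 for CES1. For other UGT genes the lower count went from 0 (edgeR, with UGT8 the 1 gene tested) to 2 with no filter and 1 in DESeq2, and for other CES genes the higher count from 1 to 2 with no filter, where more genes are tested. The higher count of other esterases went from 2 to 1 with RLE scaling, upper-quartile scaling, no filter and DESeq2, and the lower count of sulfation from 2 to 1 with the 1 CPM filter, which keeps fewer genes; the cause of the former was not tested. Leaving out 1 library gave 2 to 5 lower genes of UDP-glucuronic acid supply, 2 to 4 lower transporters, and 1 higher esterase throughout. Values near 0 changed sign. UGT8 ran from -0.14 to 0.021 with 1 library left out, above 0 without knockout library 3. ITGAM was -0.021 with upper-quartile scaling and ran from -0.052 to 0.10 with 1 library left out, below 0 without parental library 2, parental library 3 or knockout library 2. SLC35D1 was 0.0033 with scaling factors from outside chromosome 2 and ran from -0.062 to 0.064 with 1 library left out, above 0 without parental library 2 or knockout library 1. YTHDC1 and CBFB missed the threshold with the factors from outside chromosome 2 (-0.20 and -0.15), in DESeq2 (-0.21 and -0.16) and without some single libraries. Same-numbered libraries deviated from their group means with correlations of 0.13, 0.03 and 0.01, so the numbers were not taken to pair the samples, and parental libraries 2 and 3 correlated best with another number. The replicate block gave 7 lower and 1 higher member and 4275 higher and 4071 lower genes, and changed no member's call. Members with under 25 reads in a library (UGT1A1, knockout UGT1A6, UGT2B7, UGT2B11, parental CES1) are limited by counting error.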
